A study of Mus musculus with 3 samples.

Results

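Hematopoietic cells carrying transcripts of natural killer (NK) cells, cytotoxic granules and early progenitors were selected from single-cell RNA sequencing of the fetal mouse thymus and described by their genes and their place in each genotype. A kept cell was a member when it had at least 1 unique molecular identifier (UMI, which marks 1 captured RNA molecule) of *Ptprc*, none of *Epcam*, none of *C1qa*, and a UMI of at least 3 of the 5 markers *Ccl5*, *Klrd1*, *Gzmb*, *Cd7* and *Cpa3*. The rule found 397 members among 16365 kept cells. Kept cells with *Ptprc* and without *Epcam* and *C1qa*, 1283 in all, are called eligible cells here.

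The data come from 1 droplet library of each of 3 genotypes of strain C57BL/6, made from thymic lobes of embryos at E13.0 to E13.5: a wild-type (Tbx1+/+) control, a library labelled Tbx1 neo2/neo2 (the Tbx1-labelled library below) and a library of homozygous *Foxn1* mutants. The neo2 allele carries a neomycin cassette in intron 5 of *Tbx1*, and the mutant *Foxn1* allele is a deletion in the gene of the transcription factor that drives differentiation of thymic epithelium. How many embryos went into each library is not given. The libraries held 6410, 5759 and 12447 barcodes in this order, with 82936619, 137498422 and 204655055 UMIs in all.

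Cells with at least 200 genes, at least 2000 UMIs, under 20% mitochondrial and under 5% globin UMIs were kept, which left 4962, 3579 and 7824 cells. Their median depth was 14838, 29096 and 17144 UMIs, and their median mitochondrial share 2.70%, 5.99% and 5.64%. *Tbx1* had 114 UMIs in the kept control cells, 642 in the Tbx1-labelled library and 1029 in the Foxn1-mutant library, or 1.47, 5.04 and 6.37 CPM (UMIs scaled to the summed UMIs of the same cells). *Tbx1* was thus no lower in the Tbx1-labelled library than in the control. The paper reports no expression of this gene in the fetal thymus, so such low counts cannot check the genotype. In these data the genotype rests on the label. *Foxn1* had 3115, 4694 and 14649 UMIs, and 3′ counts cannot check its deletion. Pairs of libraries shared 17, 18 and 28 barcode sequences. Likely doublets by Scrublet score, 250, 153 and 731 of the kept cells, stayed in, and 9, 3 and 6 of them were members. With 1 library per genotype, no test was run between genotypes. The 95% intervals given in parentheses there cover counting error only.

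The fetal thymus is seeded by progenitors that enter the lobes before blood vessels reach them, and the early cohorts can give rise to T cells as well as to innate lymphocytes. Innate lymphoid cells carry no rearranged antigen receptor. NK cells among them hold granzymes and inhibitory or activating lectin-like receptors, and lymphoid tissue inducer (LTi) cells supply tumor necrosis factor family ligands to thymic epithelium. T cell receptor genes were not analysed here.

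The 5 markers were given with the rule, so their levels in members describe the choice and were not tested. *Ccl5* (ENSMUSG00000035042, GRCm38 chromosome 11, 83525778 to 83530518), a chemokine secreted by cytotoxic and other effector lymphocytes, was found in 28.8% of control members, 26.4% of members in the Tbx1-labelled library and 95% in the Foxn1-mutant library. *Klrd1* (ENSMUSG00000030165, chromosome 6, 129591782 to 129598775), the CD94 chain that pairs with NKG2 receptors, was found in 14.0%, 21.8% and 78.3%. Both markers were thus those of a minority of members in the control library and the Tbx1-labelled library, and of most members in the Foxn1-mutant library. *Gzmb* (ENSMUSG00000015437, chromosome 14, 56258838 to 56262260), the serine protease granzyme B, ran the other way, with 85.2%, 88.5% and 18.3%. *Cd7* (ENSMUSG00000025163, chromosome 11, 121036747 to 121039418), a surface protein of T and NK cells, was found in 94.0%, 98.9% and 91.7%. *Cpa3* (ENSMUSG00000001865, chromosome 3, 20215620 to 20242181), a carboxypeptidase of mast cells and of early hematopoietic progenitors, was found in 93.2%, 94.3% and 50.0%. *Cd7* was therefore the marker that members of all 3 libraries most nearly had in common.

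The background of free RNA was low beside these shares. In mesenchymal cells, which should lack the markers (a UMI of *Pdgfra* and of *Col1a2*, none of *Ptprc* or *Epcam*), *Ccl5* was found in 0.422%, 0.282% and 0.453% of cells, *Klrd1* in 0.211%, 0.0706% and 0.0412%, and *Gzmb* in 0.634%, 1.62% and 0.165%. *Cd7* was found in 0.634%, 0.212% and 0.123% of them and *Cpa3* in 0.422%, 1.13% and 0.288%. The median depth was 9601, 25446 and 13780 UMIs in mesenchymal cells and 20029, 57516 and 20319.5 in members. None of the 947, 1416 and 2430 mesenchymal cells had 3 of the 5 markers, with upper 95% limits of 0.389%, 0.260% and 0.152%.

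Summed over members, *Ccl5* stood at 318, 229 and 1523 CPM in the control library, the Tbx1-labelled library and the Foxn1-mutant library, and *Klrd1* at 97.4, 62.7 and 488 CPM. *Gzmb* stood at 505, 528 and 57.0 CPM, *Cd7* at 180, 162 and 413 CPM, and *Cpa3* at 249, 263 and 429 CPM. Among eligible cells with *Klrd1*, 87.5%, 86.2% and 89.7% also had *Cd7*. Among those with *Ccl5*, 43.8%, 48.3% and 12.7% also had *Gzmb*. Over all eligible cells *Cd7* was found in 56.3%, 67.8% and 56.2%, and *Gzmb* in 51.1%, 53.6% and 10.3%. Cells with *Klrd1* thus had *Cd7* more often than all eligible cells did, while *Gzmb* in cells with *Ccl5* stood near its share over all eligible cells. Neither was tested.

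Members were divided into 2 kinds by *Ccl5* and *Klrd1*, a division made after the marker pattern was seen. A member with neither gene must hold *Gzmb*, *Cd7* and *Cpa3* by the rule, so the division itself is not a result. Of the 397 members, 172 had *Ccl5* or *Klrd1* and are called *Ccl5*/*Klrd1* members here: 83 in the control, 31 in the Tbx1-labelled library and 58 in the Foxn1-mutant library. The other 225, of which 167, 56 and 2 lay in these libraries, had *Gzmb*, *Cd7* and *Cpa3* and neither *Ccl5* nor *Klrd1*, and are called *Gzmb*/*Cd7*/*Cpa3* members. *Ccl5* and *Klrd1* with *Cd7* as the only other marker were found in 10, 4 and 27 cells. *Ccl5* with *Gzmb*, *Cd7* and *Cpa3* was found in 20, 9 and 0 cells, and all 5 markers in 4, 3 and 1. The working name for these cells, innate-like lymphoid, is checked against the genes outside the rule below. NK receptors and innate transcription factors were mostly higher in *Ccl5*/*Klrd1* members than in *Gzmb*/*Cd7*/*Cpa3* members, while transcripts of progenitors and of the T lineage were found in both, so the kinds are called here by their leading genes.

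Cells just outside the threshold of 3 markers were set beside members just inside it, which by the rule hold more of the markers. Eligible cells with 2 markers numbered 294, 49 and 83, and those with 3 markers 216, 64 and 41. *Ccl5* was found in 9.52%, 10.2% and 25.3% of cells with 2 markers and in 18.5%, 10.9% and 95.1% of cells with 3. *Klrd1* was found in 6.46%, 16.3% and 44.6% against 9.72%, 7.81% and 68.3%, and *Gzmb* in 60.2%, 38.8% and 18.1% against 84.7%, 89.1% and 14.6%. *Cd7* was found in 51.4%, 55.1% and 72.3% against 93.1%, 98.4% and 87.8%, and *Cpa3* in 72.4%, 79.6% and 39.8% against 94.0%, 93.8% and 34.1%. The widest gap was thus in *Cd7* in the control, in *Gzmb* in the Tbx1-labelled library and in *Ccl5* in the Foxn1-mutant library.

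*Ccl5*/*Klrd1* members differed in how many UMIs of these genes they held. With 1 UMI of *Ccl5* and *Klrd1* together there were 38, 12 and 4 cells, with 2 to 4 UMIs 8, 3 and 11, and with 5 or more UMIs 37, 16 and 43. A single UMI was thus what placed 45.8% of control *Ccl5*/*Klrd1* members in that kind, 38.7% of those in the Tbx1-labelled library and 6.90% in the Foxn1-mutant library. Such a cell must hold at least 2 of *Gzmb*, *Cd7* and *Cpa3* by the rule, so these markers cannot tell which kind it belongs to. Cells with 5 or more UMIs are therefore given beside all *Ccl5*/*Klrd1* members where the values differ, a set chosen after seeing the data. In single cells the highest count of *Ccl5* was 233, 369 and 415 UMIs, and that of *Klrd1* 56, 132 and 65.

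**Figure D1:**
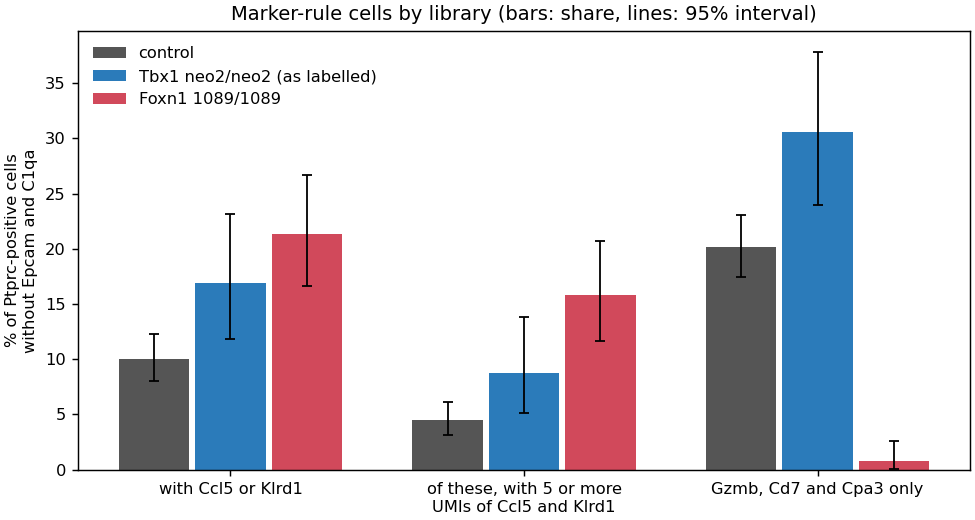
Share of eligible cells (vertical axis, percent of *Ptprc*-positive cells without *Epcam* and *C1qa*) that were *Ccl5*/*Klrd1* members, *Ccl5*/*Klrd1* members with 5 or more UMIs of these genes, or *Gzmb*/*Cd7*/*Cpa3* members, in the control, the Tbx1-labelled library and the Foxn1-mutant library, with lines for exact 95% intervals of counting error. Cells with 5 or more UMIs were 4.47% in the control and 15.8% in the Foxn1-mutant library, where *Gzmb*/*Cd7*/*Cpa3* members were 0.735%.

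Genes of known innate lineages were then counted per cell. An NK gate (at least 2 of *Klrb1c*, *Ncr1*, *Eomes*, *Tbx21*, *Il2rb*, *Prf1* and *Klre1*) held 9 of 83 control *Ccl5*/*Klrd1* members (10.8%, 5.08 to 19.6%), 7 of 31 in the Tbx1-labelled library (22.6%, 9.59 to 41.1%) and 13 of 58 in the Foxn1-mutant library (22.4%, 12.5 to 35.3%). It held 0 of 167, 0 of 56 and 0 of 2 *Gzmb*/*Cd7*/*Cpa3* members, with upper 95% limits of 2.18% and 6.38% in the larger groups. All of these NK-gated cells had 5 or more UMIs of *Ccl5* and *Klrd1*, and no mesenchymal cell passed the gate. Of the T-lineage comparison cells defined below, 0 of 100, 0 of 13 and 2 of 5 passed it. Most *Ccl5*/*Klrd1* members thus did not pass the NK gate at this depth.

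Thinned to 10000 UMIs a cell, with 11, 0 and 4 shallower *Ccl5*/*Klrd1* members left out, the NK gate held 6.94%, 12.9% and 16.7%. Single NK genes were rare: *Ncr1*, the activating receptor NKp46, had UMIs in 4, 1 and 6 *Ccl5*/*Klrd1* members, *Eomes*, a transcription factor of mature NK cells, in 3, 1 and 3, and *Prf1*, the pore former perforin, in 0, 0 and 1. Both *Ncr1* and *Eomes* had no UMI in *Gzmb*/*Cd7*/*Cpa3* members or in mesenchymal cells of any library.

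Other gates overlapped with these. The 3 T-lineage genes *Cd3g*, *Cd3d* and *Lck* all had a UMI in 21, 13 and 11 *Ccl5*/*Klrd1* members (25.3%, 41.9% and 19.0%) and in 47, 26 and 1 *Gzmb*/*Cd7*/*Cpa3* members, against 1, 0 and 0 mesenchymal cells. *Cd3g* alone had a UMI in 58, 23 and 32 *Ccl5*/*Klrd1* members. A progenitor gate (at least 2 of *Kit*, *Flt3*, *Cd34*, *Lyl1*, *Hhex* and *Mef2c*) held 61, 30 and 43 of them and 143, 53 and 2 *Gzmb*/*Cd7*/*Cpa3* members, or 73.5%, 96.8% and 74.1% against 85.6%, 94.6% and 100%. In mesenchymal cells it held 5.70%, 28.8% and 9.63%. Transcripts of progenitors and of the T lineage were thus present in both kinds of members. A mast cell gate held 0, 2 and 0 *Ccl5*/*Klrd1* members and 4, 5 and 1 *Gzmb*/*Cd7*/*Cpa3* members.

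A dendritic gate was added after the data were seen (at least 2 of *H2-Aa*, *H2-Ab1*, *H2-Eb1*, *Siglech*, *Itgax*, *Xcr1*, *Clec9a* and *Zbtb46*). It held 6 of 83, 3 of 31 and 19 of 58 *Ccl5*/*Klrd1* members (7.23%, 9.68% and 32.8%) and 5 of 167, 4 of 56 and 0 of 2 *Gzmb*/*Cd7*/*Cpa3* members (2.99%, 7.14% and 0%), against 0.95%, 1.84% and 0.658% of mesenchymal cells. Of the gated *Ccl5*/*Klrd1* members, 2, 2 and 4 had *Cd3g*. Dendritic transcripts were thus most frequent in *Ccl5*/*Klrd1* members of the Foxn1-mutant library, and for part of the genes below values without these cells are given.

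The genes that set *Ccl5*/*Klrd1* members apart from *Gzmb*/*Cd7*/*Cpa3* members were sought to see what lies behind each marker set. UMIs were summed per kind and library, giving 6 sums, and tested in edgeR with the library as a block and with the 11 genes of the rules left out. Of 10166 genes tested, 504 were higher in *Ccl5*/*Klrd1* members (4.96% of genes tested) and 162 were lower (1.59%), together 6.55%, at a Benjamini-Hochberg adjusted p under 0.05. NK receptors (13 of 13), innate transcription factors (9 of 10), dendritic genes (8 of 8) and dissociation-response genes (9 of 11) were among the lists mostly higher. A minority of T-lineage (5 of 17), Notch response (4 of 9) and cell cycle genes (5 of 20) were lower, and 5 of 5 mast cell genes. How the calls of these lists fared in other settings is given below. DESeq2 called 124 genes higher and 2 lower. As the Foxn1-mutant sum of *Gzmb*/*Cd7*/*Cpa3* members rests on 2 cells, the counts without that library are given, 543 higher and 326 lower. They were 177 and 17 without the control and 129 and 9 without the Tbx1-labelled library.

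NK receptors were higher in *Ccl5*/*Klrd1* members as a group. All 13 tested genes of this list, which left out *Klrd1*, were higher by edgeR, with a median log2 difference of 5.10 against 0.03 over all genes. With the 3 genes that had no UMI in 1 kind set at their bound, the median was 4.49. DESeq2 called 9 of the 13. Of the other 17 genes of the list, which had too few UMIs, 8 had none and 9 were higher by CPM. Fewer could be tested in part of the data: 8 of 8 were higher without the Foxn1-mutant library, 6 of 9 without the control, 7 of 10 without the Tbx1-labelled library and 8 of 9 without dendritic-gated cells. Summed over the list, NK receptors stood at 285, 402 and 565 CPM in *Ccl5*/*Klrd1* members and 73.9, 139 and 241 CPM in *Gzmb*/*Cd7*/*Cpa3* members.

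*Klrk1*, the activating receptor NKG2D, stood at 21.8 CPM in control *Ccl5*/*Klrd1* members, 21.8 CPM in the Tbx1-labelled library and 33.8 CPM in the Foxn1-mutant library, and at 0.281, 0 and 0 CPM in *Gzmb*/*Cd7*/*Cpa3* members. Ratios of pooled UMIs are given over the control and the Tbx1-labelled library summed here and below, as the Foxn1-mutant library has few cells of the class with the lower level, while p values and counts of libraries cover all 3. The ratio of *Klrk1* is 161 (27.9 to 6471), with edgeR adjusted p = 2.99e-22 and the direction in 3 of 3 libraries. In the Tbx1-labelled library, 30 of its 32 UMIs lay in 1 cell, which passed the dendritic gate, and without gated cells it stood at 1.52 CPM there. *Klrb1b*, an inhibitory receptor of the NKR-P1 family, stood at 16.2, 32.0 and 37.6 CPM against 0.281, 1.30 and 0 CPM (log2 difference 4.90, edgeR adjusted p = 3.64e-20, 3 of 3 libraries). *Klrc1*, the NKG2A chain that pairs with CD94, had 10.6, 5.45 and 11.3 CPM, and *Klri2*, another lectin-like receptor, 7.05, 8.86 and 12.8 CPM. Neither had a UMI in *Gzmb*/*Cd7*/*Cpa3* members, which makes each at least 19.6-fold higher. *Cd160*, a receptor of NK cells and of some intraepithelial T cells, was less confined, with 92.3, 111 and 232 CPM against 36.5, 55.3 and 161 CPM (log2 difference 1.15, edgeR adjusted p = 3.34e-11, 3 of 3 libraries). In edgeR it lost the call with no library block (adjusted p = 0.39) and after thinning to 2000 UMIs a cell (0.090).

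Other surface receptors followed. *Cd200r4* and *Cd200r1*, receptors of the CD200 family on myeloid and innate lymphoid cells, were among the genes with the largest differences. *Cd200r4* had 53.5, 52.5 and 92.5 CPM against 0, 0.261 and 13.4 CPM, a ratio of 392 (69.3 to 15573), or 244 (67.0 to 2028) with the Foxn1-mutant library (edgeR adjusted p = 8.49e-54, 3 of 3 libraries). *Cd200r1* had 27.5, 38.9 and 57.2 CPM against 0.281, 0.261 and 0 CPM, a ratio of 123 (33.1 to 1029; edgeR adjusted p = 2.87e-33, 3 of 3 libraries). It was found in 21.7%, 35.5% and 46.6% of *Ccl5*/*Klrd1* members, against 0.528%, 0.565% and 0.412% of mesenchymal cells.

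The adaptor proteins through which such receptors signal were higher in *Ccl5*/*Klrd1* members in part. *Tyrobp* (DAP12) stood at 1522, 823 and 1234 CPM in the control library, the Tbx1-labelled library and the Foxn1-mutant library, against 529, 212 and 415 CPM in *Gzmb*/*Cd7*/*Cpa3* members (log2 difference 1.78, edgeR adjusted p = 5.48e-59, 3 of 3 libraries). *Fcer1g*, the Fc receptor γ chain, stood at 941, 576 and 702 CPM against 512, 280 and 602 CPM (log2 difference 0.92, edgeR adjusted p = 5.33e-16, 3 of 3 libraries). *Tyrobp* had a UMI in 98.8%, 100% and 100% of *Ccl5*/*Klrd1* members and in 2.11%, 1.69% and 1.89% of mesenchymal cells. Of the 7 adaptors tested, 3 were higher (DESeq2, 3), and the list's median was 0.62. With no library block *Tyrobp* had an adjusted p of 0.11 and *Fcer1g* of 0.72.

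Transcription factors of innate lymphocytes were higher in 9 of 10 tested genes by edgeR (median log2 difference 1.05) and in 6 by DESeq2. The count was 9 without the Foxn1-mutant library, 8 without dendritic-gated cells and 4 without the Tbx1-labelled library. *Id2*, the inhibitor of E proteins that innate lymphoid cells need, stood at 206 CPM (183 to 231), 626 CPM (586 to 668) and 802 CPM (755 to 852), against 28.4, 102 and 214 CPM in *Gzmb*/*Cd7*/*Cpa3* members. Its log2 difference was 2.69 (edgeR adjusted p = 2.36e-94, 3 of 3 libraries, 0.076 with no library block). Mesenchymal cells express *Id2* themselves, at 161, 244 and 363 CPM, so a share of cells with a UMI tells little here. *Tbx21*, the T-bet factor of NK cells and type 1 innate cells, stood at 7.05, 22.5 and 27.8 CPM against 0, 0.522 and 0 CPM, a ratio of 55.1 (14.3 to 469; edgeR adjusted p = 1.87e-13, 3 of 3 libraries). It was found in 10 of 83, 6 of 31 and 18 of 58 *Ccl5*/*Klrd1* members, and in 0%, 0.282% and 0.0823% of mesenchymal cells. *Rora*, a nuclear receptor of type 2 innate lymphoid cells, stood at 57.1, 108 and 77.5 CPM against 4.50, 36.8 and 0 CPM (log2 difference 2.30, edgeR adjusted p = 2.78e-21, 3 of 3 libraries, 0.22 with no library block). *Tbx21* and *Rora* were thus both found among *Ccl5*/*Klrd1* members, and *Rora* also in *Gzmb*/*Cd7*/*Cpa3* members of the control and the Tbx1-labelled library. Whether any of these cells ran a type 2 program was not tested.

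Of the LTi and type 3 genes, 4 of 9 tested were higher (median log2 difference 1.94), 2 by DESeq2. *Cxcr6*, a chemokine receptor of innate lymphoid and memory cells, had 7.75, 23.9 and 26.3 CPM against 0, 1.04 and 0 CPM (log2 difference 4.85, edgeR adjusted p = 7.66e-13, 3 of 3 libraries). *Ltb*, which encodes lymphotoxin β, was the most abundant gene of the list, at 186, 227 and 346 CPM against 60.4, 59.0 and 0 CPM (log2 difference 1.93, edgeR adjusted p = 3.92e-43, 3 of 3 libraries). DESeq2 did not call *Ltb* (adjusted p = 0.52). *Lta*, its partner, was higher in 2 of 3 libraries, and 74 of its 135 UMIs in the Tbx1-labelled library lay in 1 cell. Without that library its edgeR adjusted p was 1.

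Cytokine and chemokine genes were higher in 4 of 9 tested by edgeR (*Ccl3*, *Ccl4*, *Xcl1* and *Ifng*), in 4 without the Foxn1-mutant library and in 2 without either other library. DESeq2 called 0 of them, with an adjusted p of 0.44 for *Ccl3*, 0.38 for *Ccl4*, 0.79 for *Xcl1* and 0.052 for *Ifng*. *Xcl1*, the chemokine lymphotactin of NK cells and thymic medulla, had 25.4, 2.04 and 28.6 CPM and no UMI in *Gzmb*/*Cd7*/*Cpa3* members, at least 33.3-fold higher (edgeR adjusted p = 2.13e-13, 3 of 3 libraries, 0.37 without the control). *Ifng*, the type 1 cytokine, had 3.52, 2.73 and 21.1 CPM and no UMI in them, at least 7.68-fold higher (edgeR adjusted p = 3.35e-04, 3 of 3 libraries). Without the control its adjusted p was 0.42, and without the Tbx1-labelled library 0.20. *Ccl3*, an inflammatory chemokine, had 9.86, 98.8 and 80.5 CPM against 1.4, 0 and 0 CPM, and 85 of its 107 Foxn1-mutant UMIs lay in 1 cell. *Xcl1* was found in 9, 1 and 6 *Ccl5*/*Klrd1* members, *Ifng* in 4, 1 and 7, *Ccl3* in 5, 7 and 11 and *Ccl4* in 6, 5 and 15. Each of these 4 genes was thus found in a minority of them.

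Granule genes differed among themselves. *Gzma*, the granzyme with the most UMIs, stood at 3176, 1563 and 3215 CPM in *Ccl5*/*Klrd1* members and at 3266, 2930 and 6891 CPM in *Gzmb*/*Cd7*/*Cpa3* members, so it did not mark the former. It was lower by edgeR (log2 difference -0.56, adjusted p = 3.02e-07, 2 of 3 libraries by the fit and 3 of 3 by CPM), though not by DESeq2 (0.42) or without the Tbx1-labelled library (0.27). *Ctsw*, the cathepsin W of cytotoxic lymphocytes, stood at 48.6, 78.4 and 109 CPM against 2.25, 6.79 and 0 CPM (log2 difference 3.91, edgeR adjusted p = 1.58e-39, 3 of 3 libraries). It was found in 33.7%, 61.3% and 51.7% of *Ccl5*/*Klrd1* members, against 0.528%, 0.353% and 0.123% of mesenchymal cells. *Nkg7*, a granule membrane protein, stood at 378, 337 and 337 CPM against 243, 228 and 120 CPM (log2 difference 0.72, edgeR adjusted p = 2.68e-08, 3 of 3 libraries, 0.52 with no library block, 0.12 after thinning to 2000 UMIs a cell). In all, 3 of 9 tested genes of the list were higher and 1 lower, and 2 and 0 by DESeq2, with a median of 0.59. Without the Tbx1-labelled library 3 were higher and 0 lower.

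Receptors for homing and for cytokines were higher in part. Of 14 tested homing and adhesion genes, 8 were higher by edgeR and 3 by DESeq2 (median log2 difference 0.61), with 3 higher without the control and 3 without the Tbx1-labelled library. *Ccr9*, the receptor for the thymic chemokine CCL25, stood at 8.46, 51.8 and 69.2 CPM against 0.843, 4.70 and 0 CPM (log2 difference 3.51, edgeR adjusted p = 2.13e-17, 3 of 3 libraries). *Cxcr3*, a receptor for interferon-induced chemokines, stood at 24, 13.6 and 41.4 CPM against 0, 0.522 and 0 CPM, a ratio of 69.1 (18.2 to 585; edgeR adjusted p = 1.44e-18, 3 of 3 libraries). Of 11 tested cytokine receptors, 4 were higher by edgeR and 2 by DESeq2 (median 0.52), with 2 without the control and 1 without the Tbx1-labelled library. *Il2rb*, the β chain through which IL-2 and IL-15 signal in NK cells, stood at 19.7, 17.0 and 28.6 CPM against 0.281, 0.261 and 0 CPM, a ratio of 67.9 (17.9 to 575; edgeR adjusted p = 2.48e-17, 3 of 3 libraries). *Il7r*, the IL-7 receptor chain of lymphoid progenitors, was alike in both kinds, at 34.5, 47.7 and 57.9 CPM against 33.4, 43.9 and 66.9 CPM (log2 difference 0.12, edgeR adjusted p = 0.889, 2 of 3 libraries; 0.037 in the cells with 5 or more UMIs of *Ccl5* and *Klrd1*).

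Interferon-related genes were higher in part. In the list of MHC class I and interferon-induced genes, 7 of 15 tested were higher and 1 (*Bst2*) lower by edgeR, 3 and 0 by DESeq2, with a median of 0.59 and 4 higher without the Tbx1-labelled library. Among genes named for size alone, *AW112010* stood at 142, 63.4 and 618 CPM against 4.50, 2.61 and 0 CPM (log2 difference 4.98, edgeR adjusted p = 2.94e-103, 3 of 3 libraries), and at 108, 51.5 and 369 CPM in the *Ccl5*/*Klrd1* members outside the dendritic gate. *Irx3*, a homeobox factor, stood at 35.9, 13 and 21.8 CPM against 0.562, 0 and 0 CPM, a ratio of 89.6 (23.9 to 755; edgeR adjusted p = 2.78e-21, 3 of 3 libraries). *Asb2*, a ubiquitin ligase subunit, stood at 14.8, 11.6 and 46.6 CPM against 0.281, 0 and 0 CPM, a ratio of 97.3 (16.4 to 3943; edgeR adjusted p = 1.13e-14, 3 of 3 libraries).

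Dendritic genes moved with the *Ccl5*/*Klrd1* members, and part of them with few cells. All 8 tested were higher by edgeR (median 2.49) and 5 by DESeq2, and without dendritic-gated cells 5 of 6 were higher (median 1.73). Summed, the list stood at 626, 688 and 2715 CPM, with *Cst3* the most abundant in the control and the Foxn1-mutant library and *Ccr2* in the Tbx1-labelled library, against 343, 299 and 375 CPM in *Gzmb*/*Cd7*/*Cpa3* members. *Cd74*, the MHC class II invariant chain, which is not among the genes of the dendritic gate, stood at 542, 190 and 2829 CPM inside it and at 37.8, 4.55 and 35.0 CPM in the *Ccl5*/*Klrd1* members outside. *Cst3* stood at 511, 217 and 2650 CPM inside and 251, 202 and 262 CPM outside. *Cst3* was thus higher inside the gate in the control and the Foxn1-mutant library. It differed little in the Tbx1-labelled library, where the inside value came from 32 UMIs in 3 cells. *Cd74* was higher inside the gate in all 3 libraries. *Ccr2*, a chemokine receptor of monocytes and of some lymphocytes, was not: without gated cells it kept its call, and in all *Ccl5*/*Klrd1* members it stood at 42.3, 224 and 119 CPM against 4.50, 38.4 and 0 CPM (log2 difference 2.79, edgeR adjusted p = 1.01e-39, 3 of 3 libraries, 0.17 with no library block). *Id2* outside the gate stood at 208, 631 and 722 CPM.

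A minority of T-lineage genes were lower in *Ccl5*/*Klrd1* members. Of 17 tested T-lineage genes 5 were lower (*Cd3e*, *Lat*, *Ptcra*, *Rag1* and *Rag2*) and 1 higher, with a median log2 difference of -0.08, but DESeq2 called 0 in either direction. By edgeR 5 were lower without the Foxn1-mutant library, while 0 were lower without the control or without the Tbx1-labelled library. *Rag1*, the recombinase of antigen receptor genes, stood at 2.11, 9.54 and 0 CPM against 19.1, 23 and 0 CPM (log2 difference -1.81, edgeR adjusted p = 3.34e-04, 2 of the 3 libraries having UMIs, 0.37 by DESeq2). Without the control its adjusted p was 0.86, and without the Tbx1-labelled library 0.083. *Tcf7* and *Gata3*, factors that start the T cell program, were alike in both kinds. *Tcf7* stood at 227, 359 and 167 CPM against 207, 306 and 281 CPM (log2 difference 0.16, edgeR adjusted p = 0.575, 2 of 3 libraries), and *Gata3* at 160, 153 and 90.2 CPM against 160, 155 and 308 CPM (-0.11, edgeR adjusted p = 0.789). The list as a whole summed to 748, 1028 and 511 CPM against 827, 997 and 923 CPM.

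Genes of the Notch response, which thymic epithelium triggers in T cell progenitors, were lower in 4 of 9 tested and higher in 1 (*Notch2*) by edgeR, with a median of -0.32. DESeq2 called 0 in either direction, and by edgeR 0 were lower without the control or without the Tbx1-labelled library. *Dtx1*, a Notch target, stood at 19.0, 26.6 and 3.76 CPM against 43.0, 53.0 and 0 CPM (log2 difference -1.0, edgeR adjusted p = 0.00211, lower in 2 of the 3 libraries by CPM). Its adjusted p was 0.82 by DESeq2, 0.80 without the control and 0.64 without the Tbx1-labelled library. *Hes1*, another target, stood at 149, 324 and 126 CPM against 213, 361 and 254 CPM (-0.32, edgeR adjusted p = 0.0953, 3 of 3 libraries), and was lower in the cells with 5 or more UMIs (7.7e-05). Cell cycle genes were lower in 5 of 20 tested by edgeR (median -0.32), but in 0 by DESeq2, without the control or without the Tbx1-labelled library. *Ccnb1*, a mitotic cyclin, stood at 66.9, 72.3 and 116 CPM against 93.3, 140 and 201 CPM (log2 difference -0.67, edgeR adjusted p = 4.69e-04, 3 of 3 libraries, 0.33 by DESeq2). The lower calls in the T-lineage, Notch and cell cycle lists thus rest on the control library and the Tbx1-labelled library together.

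Single genes with the largest negative differences were of mixed function and low level. Beside *Rag1* they were *Gm2694* (log2 difference -2.19), the splicing factor *Zrsr1* (-1.75), the oxidase *Qsox2* (-1.67), the sialomucin *Podxl* (-1.59), the galectin *Lgals7* (-1.57), the stress gene *Gadd45a* (-1.56), the lysyl oxidase *Loxl2* (-1.55), the tubulin *Tubb3* (-1.41) and *Fam159b* (-1.36). *Tubb3*, with the smallest p of these, stood at 13.4, 15.0 and 4.51 CPM against 53.4, 27.4 and 13.4 CPM (edgeR adjusted p = 4.94e-05, 3 of 3 libraries), with 0.30 by DESeq2 and 0.98 without the control. None of these genes kept its edgeR call without the control or was called by DESeq2, with adjusted p by DESeq2 from 0.14 (*Qsox2*) to 0.94 (*Loxl2*). None of these 10 genes thus marked the *Gzmb*/*Cd7*/*Cpa3* members in every setting.

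Of 17 progenitor genes tested, 5 were higher and 0 lower by edgeR, against 4.96% and 1.59% over all genes. DESeq2 called 2 higher, and the list's median was 0.05. Without the control 3 were higher, and without the Tbx1-labelled library 2. *Kit* and *Cd34*, which mark early progenitors, had log2 differences of 0.05 and -0.10 (edgeR adjusted p = 0.947 and 0.878, 2 of 3 libraries each). In the cells with 5 or more UMIs *Cd34* was lower (adjusted p = 0.019 by edgeR). *Mef2c*, a factor of lymphoid progenitors, stood at 69.1, 185 and 177 CPM against 37.1, 49.6 and 0 CPM (log2 difference 1.61, edgeR adjusted p = 1.64e-20, 3 of 3 libraries, 0.10 with no library block and 0.12 after thinning to 2000 UMIs a cell). Of 5 mast cell genes tested, all 5 were lower by edgeR and 0 by DESeq2, and they rest on 1 Foxn1-mutant cell, which held all 126 UMIs of *Mcpt2* among that library's members. Dissociation-response genes were higher in 9 of 11 tested by edgeR and 0 by DESeq2 (median 0.63), led by *Hspa1a*, with 81 of its 82 UMIs in 1 cell of the Tbx1-labelled library. Without the control 4 were higher, and without the Tbx1-labelled library 2. Their part in the differences was not tested. In the remaining lists of other cell types, edgeR called 2 of 3 macrophage genes (median 1.45) and 1 of 1 endothelial gene higher. Of 5 genes tied to γδ T cells 1 was higher (*Maf*, not called by DESeq2 or without the control), and 2 of 9 mesenchymal genes were lower. Genes of epithelial, erythroid, B and neutrophil cells had medians of 0.04, 0.23, -0.04 and 0.37, and 0 genes of the αβ receptor list were in the table.

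Where *Ccl5*/*Klrd1* members were restricted to cells with 5 or more UMIs, the contrast was sharper. Of 9816 genes, 733 were higher and 369 lower. The NK receptor list then had a median of 6.21 with 13 of 13 higher, and the LTi list 3.84 with 5 of 8 higher. The Notch list had a median of -1.21 with 5 of 9 lower, and progenitor genes -0.27 with 6 of 16 lower and 3 higher. In cells with 5 or more UMIs, *Id2* was found in 32 of 37, 16 of 16 and 43 of 43, against 18 of 38, 10 of 12 and 2 of 4 cells with 1 UMI.

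**Figure D2:**
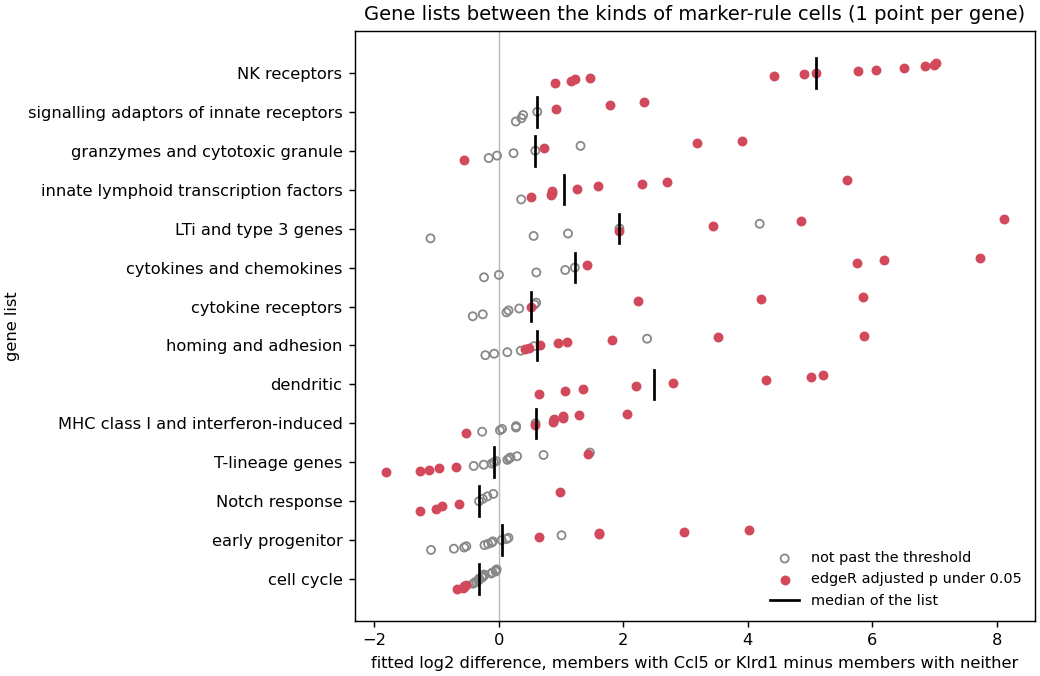
Fitted log2 difference of each tested gene (horizontal axis, 1 point per gene) between *Ccl5*/*Klrd1* members and *Gzmb*/*Cd7*/*Cpa3* members, by gene list (vertical axis), with filled points for an edgeR adjusted p under 0.05 and a bar for the list's median. All 13 NK receptor genes lie right of 0, with a median of 5.10, while the medians of the T-lineage, Notch and cell cycle lists are -0.08, -0.32 and -0.32; values of genes without a UMI in 1 kind depend on the model.

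**Figure D3:**
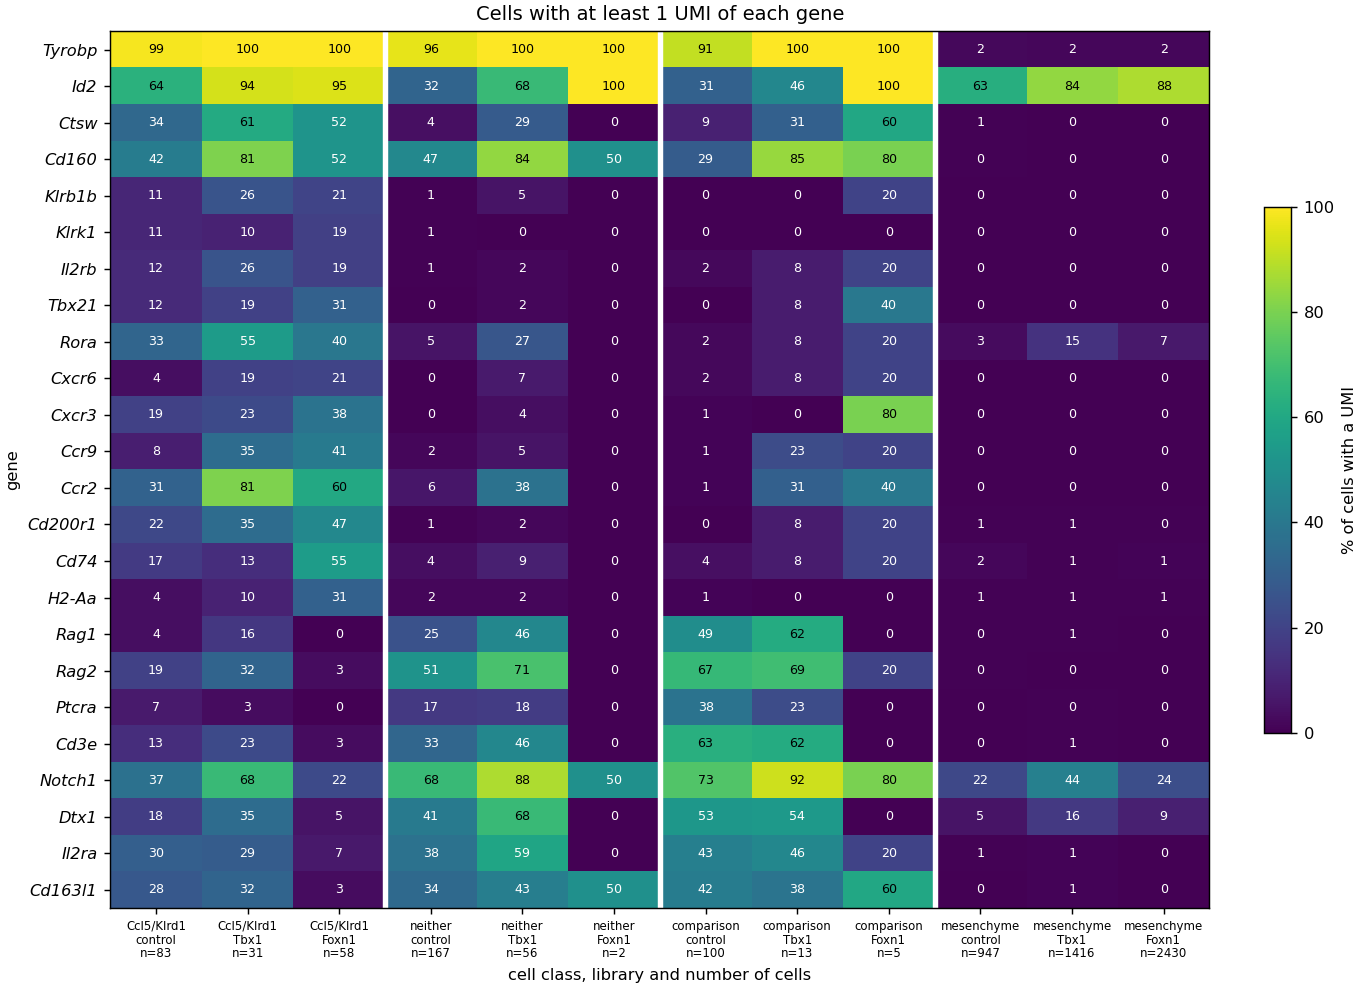
Percent of cells with at least 1 UMI of each gene (vertical axis; color and printed number) by cell class and library (horizontal axis, with the number of cells), with mesenchymal cells as background. *Tbx21* has a UMI in 12.0%, 19.4% and 31.0% of *Ccl5*/*Klrd1* members and in 0%, 1.79% and 0% of *Gzmb*/*Cd7*/*Cpa3* members, while *Rag2* runs from 19.3%, 32.3% and 3.45% in the former to 51.5%, 71.4% and 0% in the latter, and the Foxn1-mutant columns of the latter and of the comparison cells hold 2 and 5 cells.

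All members together were then set against T-lineage cells, eligible cells with *Cd3g*, *Cd3d* and *Lck* and fewer than 3 of the 5 markers, to ask what the marker rule adds to the T cell program. There were 100, 13 and 5 such comparison cells, with median depths of 20686.5, 68892 and 21846 UMIs. Many carried markers of the rule, with *Gzmb* in 53%, 61.5% and 0% and *Cpa3* in 70%, 84.6% and 80% of them. *Cd7* was found in 27%, 15.4% and 60%. *Ccl5* stood at 67.7, 1169 and 257 CPM in them, against 318, 229 and 1523 CPM in members. In comparison cells, 114 of its 133 control UMIs and 879 of its 982 UMIs in the Tbx1-labelled library lay in 1 cell each. Of 10498 genes tested, 186 were higher in members (1.77%) and 86 lower (0.819%), together 2.59%, by edgeR at an adjusted p under 0.05. The higher genes included *Id2*, and the lower ones *Rag1* and *Ptcra*. DESeq2 called 17 and 5. Without the control the counts were 64 and 12, without the Tbx1-labelled library 87 and 39, and without the Foxn1-mutant library 107 and 80. With no library block edgeR called 0 and 0, with 232 and 37 at an unadjusted p under 0.05, so every call here rests on comparing kinds within a library.

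*Id2*, *AW112010* and *Il1r2* were higher in all members, and also in *Ccl5*/*Klrd1* members beside *Gzmb*/*Cd7*/*Cpa3* members. *Id2* stood at 79.1, 247 and 771 CPM in members of the control, the Tbx1-labelled library and the Foxn1-mutant library, against 44.8, 82.2 and 463 CPM in comparison cells (log2 difference 1.10, edgeR adjusted p = 3.50e-16, 3 of 3 libraries). *AW112010* stood at 43.8, 19.4 and 585 CPM against 8.14, 3.57 and 140 CPM (2.31, edgeR adjusted p = 9.91e-25, 3 of 3 libraries). *Il1r2*, the decoy receptor for interleukin 1, stood at 19.9, 23.4 and 110 CPM against 5.09, 3.57 and 14.7 CPM (2.34, edgeR adjusted p = 6.96e-09, 3 of 3 libraries). These 3 genes kept their calls when any library was left out. After thinning to 2000 UMIs a cell, their adjusted p was 0.44, 0.26 and 0.99. Of member UMIs, 2278 of *Id2* and 1117 of *AW112010* lay in *Ccl5*/*Klrd1* members, and 509 and 26 in *Gzmb*/*Cd7*/*Cpa3* members. By the CPM given above, *AW112010* was lower in *Gzmb*/*Cd7*/*Cpa3* members than in comparison cells in each library. *Id2* was lower in the control and the Foxn1-mutant library. The kinds were not tested apart against comparison cells. *Cma1*, a mast cell chymase, stood at 40.4, 44.2 and 64.1 CPM against 2.55, 8.34 and 0 CPM (3.35, edgeR adjusted p = 3.53e-19, 3 of 3 libraries). All 90 UMIs of *Cma1* in Foxn1-mutant members lay in 1 cell.

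*Cd200r1* was higher in members too, at 8.04, 10.9 and 54.1 CPM against 0, 1.19 and 7.35 CPM, a ratio of 26.7 (4.69 to 1067; edgeR adjusted p = 2.24e-06, 3 of 3 libraries). *Klrk1* had 6.43, 6.04 and 32.0 CPM and no UMI in comparison cells, at least 5.82-fold higher (edgeR adjusted p = 2.19e-05, 3 of 3 libraries, 0.083 without the control). *Il13*, a type 2 cytokine, had 5.83, 9.63 and 15.7 CPM against 0, 1.19 and 0 CPM, a ratio of 21.8 (3.81 to 873; edgeR adjusted p = 5.72e-04, 3 of 3 libraries, 0.44 without the control). The other large differences were the interferon-induced GTPase *Gbp2* (log2 difference 2.55), *Ccl4* (3.92, adjusted p by edgeR 0.26 without the control), and *Bcl2a1b* and its paralog *Bcl2a1d*, which had no UMI in comparison cells. Of *Bcl2a1b*, 220 of 233 UMIs in members lay in the Foxn1-mutant library, with 210 in dendritic-gated cells, beside 5 comparison cells, and without that library each of the pair was at least 1.18-fold higher. Some receptors and cytokines of innate lymphocytes were thus higher in the sum of all members by edgeR, and *Klrk1*, *Il13* and *Ccl4* only with the control. Of member UMIs, *Ccl5*/*Klrd1* members held 172 of *Cd200r1*, 108 of *Klrk1* and 119 of *Ccl4*. *Gzmb*/*Cd7*/*Cpa3* members held 2, 1 and 40. The levels of *Cd200r1* and *Klrk1* in members thus came almost wholly from *Ccl5*/*Klrd1* members. Comparison cells carried NK receptors as well, at a sum of 39.2, 132 and 412 CPM. In *Gzmb*/*Cd7*/*Cpa3* members the sum was 73.9, 139 and 241 CPM, higher in the control and lower in the Foxn1-mutant library. *Agfg1*, a trafficking factor, was the lower gene with the smallest p, at 60.7, 84.6 and 66.2 CPM against 132, 201 and 169 CPM (-1.20, edgeR adjusted p = 2.68e-17, 3 of 3 libraries), and it kept its call without any 1 library and by DESeq2, though not thinned to 2000 UMIs (0.99).

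By list, 7 of 17 progenitor genes were higher (median 0.63), 6 of 8 dendritic genes (1.15), 5 of 9 cytokines (2.36), 4 of 13 NK receptors (2.22), 3 of 10 innate transcription factors (0.19) and 7 of 12 dissociation-response genes (0.71), against a median of 0.03 over all genes. With genes without a UMI in 1 class at their bound, the medians were 1.77 for NK receptors and 1.95 for cytokines. Members held 11680956 UMIs against 2940144, so genes high in members passed the filter of 30 UMIs more easily, which bears on these counts and medians. Of the untested genes, 9 NK receptors were higher by CPM and 0 lower, and 1 cytokine was higher and 2 lower. DESeq2 called 1 progenitor gene, 2 innate transcription factors and 2 dissociation-response genes, and 0 in the other 3 of these lists. Without the control, 1 progenitor gene, 4 dendritic genes, 2 innate factors and 5 dissociation-response genes were higher by edgeR, and 0 cytokines and NK receptors. Without the Foxn1-mutant library, 4, 0, 3 and 3 of these were higher, with 3 cytokines and 4 NK receptors, and without the Tbx1-labelled library 4, 6, 2 and 4, with 3 and 2. Without dendritic-gated cells 2 of 6 dendritic genes were higher. Dendritic genes in all members thus depend on the Foxn1-mutant library. The medians of the other lists were 0.36 for signalling adaptors, 0.53 for homing, 0.42 for granule genes, 0.51 for LTi genes, 0.11 for cytokine receptors, 0.33 for MHC class I and interferon-induced genes and -0.05 for the cell cycle, and -0.40 for the Notch response, with 2 of 10 lower. Of other cell types they were 0.54 for mesenchymal, -0.53 for epithelial, 1.59 for mast cell, 0.87 for macrophage, 0.03 for erythroid, 0.05 for B cell, 0.17 for γδ-associated, 0.28 for endothelial and 2.09 for neutrophil genes. Among these lists, 2 of 5 mast cell genes and 1 of 1 neutrophil gene were higher by edgeR, and 1 of 7 epithelial genes lower. The endothelial value rests on 1 gene and the B cell value on 2.

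On the side of the T lineage, 7 of 18 T-lineage genes were lower in members (median -0.40), 1 without the control and 0 by DESeq2. *Ptcra*, which encodes the pre-T cell receptor α chain, stood at 15.3, 12.6 and 0 CPM in members against 68.2, 25 and 0 CPM in comparison cells (log2 difference -1.75, edgeR adjusted p = 6.65e-09, 2 of the 3 libraries having UMIs). Its adjusted p was 0.17 by DESeq2 and 1 without the control. *Cd3e* stood at 29.1, 30 and 1.42 CPM against 109, 25 and 0 CPM (-1.17, edgeR adjusted p = 6.32e-06, lower by CPM in the control only), and at a log2 difference of 0.26 without the control. As comparison cells were chosen for *Cd3g*, *Cd3d* and *Lck*, members with all 3 genes were also tested against them, and 86 genes were higher and 12 lower. *Cd3e* then differed by 0.04 and *Gzma* by 0.29, against -0.43 in all members (edgeR adjusted p = 1.83e-05, 2 of 3 libraries). *Rag1* lost its edgeR call in this setting (log2 difference -0.08, adjusted p = 0.98, against adjusted p = 0.00311 with a log2 difference of -1.10 in all members, and 1 without the control). *Ptcra* stayed lower there (log2 difference -1.10, edgeR adjusted p = 0.0301). Of 15 T-lineage genes tested in this setting 1 was lower and 1 higher (median 0.04), so most of the lower calls depended on members without all 3 genes.

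Against all 578, 96 and 212 other eligible cells, a comparison added after the data were seen, 123 of 12108 genes were higher in members (1.02%) and 59 lower (0.487%) by edgeR. Members thus differed at this threshold in fewer genes from all other eligible cells than their 2 kinds did from each other. At an unadjusted p under 0.05 the counts were 997 and 882, against 1051 and 539 of 10166 genes between the kinds.

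The shares of the kinds differed between the libraries in different ways. Members were 250 of 828 eligible control cells (30.2%, 27.1 to 33.4%), 87 of 183 in the Tbx1-labelled library (47.5%, 40.1 to 55.0%) and 60 of 272 in the Foxn1-mutant library (22.1%, 17.3 to 27.5%). *Ccl5*/*Klrd1* members were 10% (8.06 to 12.3%), 16.9% (11.8 to 23.2%) and 21.3% (16.6 to 26.7%), and *Gzmb*/*Cd7*/*Cpa3* members 20.2%, 30.6% and 0.735%. In the Foxn1-mutant library the former made up 2.13 times their control share (1.56 to 2.88) and the latter 0.0365 times (0.00995 to 0.132). The lower share of members there thus lay in *Gzmb*/*Cd7*/*Cpa3* members, beside a larger share of *Ccl5*/*Klrd1* members. All members together were 0.731 times their control share (0.569 to 0.929), and 0.985 times (0.715 to 1.35) after the thinning below. Thinned to 2000 UMIs they were 2.93 times (1.26 to 6.80), so the direction for all members differed between depths. Those with 5 or more UMIs were 4.47% (3.17 to 6.11%), 8.74% (5.08 to 13.8%) and 15.8% (11.7 to 20.7%) of eligible cells, 3.54 times the control share in the Foxn1-mutant library (2.33 to 5.35) and 3.10 times without dendritic-gated cells (1.92 to 4.95).

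Depth bears on these shares, since the median eligible cell of the Tbx1-labelled library had 54630 UMIs, against 20252.5 in the control and 25752 in the Foxn1-mutant library. Each cell was thinned to 10000 UMIs, with 86, 6 and 20 shallower eligible cells left out. Members were then 104 of 585, 51 of 232 and 45 of 257 cells that were eligible after thinning (17.8%, 22.0% and 17.5%), 1.24 times the control share (0.914 to 1.66) in the Tbx1-labelled library, whose unthinned ratio was 1.57 (1.30 to 1.88). Its ratio was thus nearer to 1 after thinning, but the denominator moved too, as thinning removes UMIs of *Ptprc*, *Epcam* and *C1qa*: eligible cells went from 828 to 585, 183 to 232 and 272 to 257. With *Epcam* allowed and no thinning the ratio was 1.74 (1.52 to 1.97). In the Foxn1-mutant library *Ccl5*/*Klrd1* members were 2.44 times the control share after thinning (1.64 to 3.63), and those with 5 or more UMIs 4.43 times (2.57 to 7.62). With at least 4 of the 5 markers, which leaves out *Gzmb*/*Cd7*/*Cpa3* members by definition, the ratio was 1.70 (0.990 to 2.90). Whether depth or genotype sets these ratios cannot be told with 1 library of each. In the Tbx1-labelled library *Ccl5*/*Klrd1* members went from 1.69 times (1.15 to 2.45) to 1.05 times (0.608 to 1.78). Those with 5 or more UMIs went there from 1.96 times (1.11 to 3.39) to 1.40 times (0.665 to 2.93).

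The denominator bears on the shares as well, since eligible cells were 828 of 4962, 183 of 3579 and 272 of 7824 kept cells. Of all kept cells, *Ccl5*/*Klrd1* members were 0.518 times the control share in the Tbx1-labelled library and 0.443 times in the Foxn1-mutant library. The higher share in the latter is thus a share among hematopoietic cells, of which the library held relatively few, and not a share of all its cells. The number of cells per lobe cannot be read from these files.

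Within *Ccl5*/*Klrd1* members, genes were compared between libraries without a test, as ratios to the control. Of 3403 genes with at least 100 UMIs in the pair of libraries, 251 were more than 2-fold higher in the Foxn1-mutant library (7.38%) and 157 lower (4.61%). In the Tbx1-labelled library, 304 of 3624 were higher (8.39%) and 124 lower (3.42%). By list, 2 of 3 NK receptors and 2 of 8 innate transcription factors were more than 2-fold higher in the Foxn1-mutant library and 0 lower, and 1 of 4 T-lineage genes and 2 of 3 Notch response genes were lower and 0 higher. Few genes of these lists thus had enough UMIs, and part of those differed.

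*Id2* was 206, 626 and 802 CPM in the control, the Tbx1-labelled library and the Foxn1-mutant library, a log2 ratio to the control of 1.60 (1.41 to 1.79) and 1.96 (1.77 to 2.15). *Tbx21* had a log2 ratio of 1.98 (0.95 to 3.15) in the Foxn1-mutant library and 1.67 (0.62 to 2.86) in the Tbx1-labelled library, and *Ccr9* of 3.03 (2.16 to 4.04) and 2.62 (1.73 to 3.63). These genes, chosen after their values were seen, were thus higher in both libraries than in the control. *Id2* in mesenchymal cells went the same way by less, from 161 to 244 and 363 CPM. By the CPM given above, it was also higher than in the control in comparison cells and in *Gzmb*/*Cd7*/*Cpa3* members of both libraries. In the Foxn1-mutant library both rose by a larger factor than *Ccl5*/*Klrd1* members, though from few cells. In the Tbx1-labelled library comparison cells rose by a smaller factor. The rise of *Id2* was thus not particular to *Ccl5*/*Klrd1* members. Cells with a single UMI of *Ccl5* or *Klrd1* were fewer in the Foxn1-mutant library, and whether that moves these ratios was not tested.

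*Il2ra*, the IL-2 receptor α chain of early T cell progenitors, was 65.5, 77.7 and 11.3 CPM in the same order, a log2 ratio of -2.54 (-3.43 to -1.74) in the Foxn1-mutant library. *Dtx1* had 19.0, 26.6 and 3.76 CPM there (-2.34, -4.07 to -0.94), and *Cd3e* 17.6, 16.4 and 1.5 CPM (-3.55, -6.67 to -1.55). *Mpo*, an enzyme of myeloid progenitors, had 33.1, 49.1 and 0.752 CPM (-5.46, -10.79 to -2.91). These 4 genes, chosen after their values were seen too, were thus low in Foxn1-mutant cells with *Ccl5* or *Klrd1*. Of 9 early progenitor genes, 4 were more than 2-fold higher there and 1 lower (median log2 ratio 0.73), and the list summed to 605, 969 and 884 CPM, so progenitor genes were not low as a list. The Notch response summed to 511, 621 and 233 CPM and T-lineage genes to 748, 1028 and 511 CPM. *Il2ra* in comparison cells stood at 86.5, 104 and 7.35 CPM, the last from 1 UMI in 5 cells.

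By the rule of the 5 highest and 5 lowest ratios, the lowest in the Foxn1-mutant library were *Gm42418* (-4.81), *Lars2* (-4.34), *Hist1h1a* (-4.14), *Cd163l1* (-3.77) and *Hist1h3e* (-3.68). *Gm42418*, *Lars2*, *Hist1h1a* and *Hist1h3e* moved likewise in mesenchymal cells, by -5.66, -4.44, -3.31 and -3.39, so these differences were not particular to these cells. *Cd163l1*, a scavenger receptor of γδ T cells, had 92.3 CPM (77.2 to 110), 136 CPM (117 to 156) and 6.77 CPM (3.09 to 12.8) in *Ccl5*/*Klrd1* members. In comparison cells *Cd163l1* had 97.2, 119 and 103 CPM, the last from 14 UMIs in 5 cells. It was found in 27.7%, 32.3% and 3.45% of *Ccl5*/*Klrd1* members, against 0.106%, 1.13% and 0% of mesenchymal cells.

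The highest were *Dcn* (7.37), *Bcl2a1b* (5.55), *H2-Aa* (4.14), *Gm10073* (3.88) and *H2-Eb1* (3.82). *Dcn*, a matrix protein of mesenchymal cells, had 1 UMI in the control and 155 in the Foxn1-mutant library, a ratio interval of 4.87 to 12.68 on the log2 scale, and 82 of the 155 lay in 1 cell. *Gm10073* moved by 3.21 in mesenchymal cells. *Bcl2a1b*, an antiapoptotic gene of activated blood cells, had 210 UMIs in dendritic-gated Foxn1-mutant cells and 10 outside them, and without these cells a log2 ratio of 1.73 (-0.07 to 3.85). Most of its UMIs thus lay in gated cells. *H2-Aa* and *H2-Eb1* are genes of the gate, so leaving out its cells cannot test them. Of 7 dendritic genes, all 7 were more than 2-fold higher with all cells.

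In the Tbx1-labelled library the lowest ratios were *Gm42418* (-4.22), *Hist1h3e* (-4.17), *Hist1h1a* (-3.12), *Hist1h1b* (-3.07) and *Lars2* (-3.0), each as low or lower in mesenchymal cells except *Hist1h3e*, at -3.99 there. The highest were *Ccl3* (3.32), *Gm10073* (3.30), *Serpina3g* (2.98), *Lta* (2.94) and *9530036M11Rik* (2.51). *Gm10073* moved by 2.51 in mesenchymal cells. *Ccl3* had 14 UMIs in the control and 145 in the Tbx1-labelled library, in 5 of 83 and 7 of 31 cells. *Lta* had 17 and 135 UMIs with 74 in 1 cell, *Serpina3g*, a protease inhibitor of activated lymphocytes, 13 and 106 with 69 in 1 cell, and *9530036M11Rik* 27 and 159 with 51 in 1 cell. A large part of the UMIs of *Lta*, *Serpina3g* and *9530036M11Rik* thus lay in 1 cell each. Whether these ratios depend on those cells was not tested.

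Over all members the ratios also hold the different mix of kinds. Of 5645 genes, 460 were more than 2-fold higher in the Foxn1-mutant library (8.15%) and 345 lower (6.11%), and in the Tbx1-labelled library 613 of 7227 (8.48%) and 145 (2.01%). The lowest in the Foxn1-mutant library included *Cox4i2*, a subunit of cytochrome c oxidase, with 211 UMIs in the control and 0, at least 19.8-fold lower. *Cox4i2* was also lower in mesenchymal cells (log2 ratio -2.23) and in comparison cells (27.0 and 7.35 CPM). *Mpo* had 198 and 1 (log2 ratio -5.80, -11.11 to -3.31), *Fbp1*, an enzyme of gluconeogenesis, 169 and 1 (-5.58, -10.89 to -3.08), and *Tnfrsf23*, a decoy receptor, 120 and 1 (-5.08, -10.40 to -2.58). *Fbp1* was at 79.4 CPM in control comparison cells and at 0 in those of the Foxn1-mutant library, and was thus without a UMI in Foxn1-mutant comparison cells as well, of which there were 5.

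The highest in all Foxn1-mutant members were *Bcl2a1b* (6.80), *H2-Aa* (5.67), *H2-Eb1* (5.47), *Dcn* (5.40) and *Mcpt2*, with 126 UMIs against 0 in the control. In the Tbx1-labelled library the highest were *Mgp* (3.76), *Dcn* (3.67), *Fap* (3.08), *Gm10073* (2.95) and *Ccl3* (2.84), of which *Mgp*, a matrix protein, and *Gm10073* moved by 3.44 and 2.51 in mesenchymal cells. *Dcn* and *Fap*, genes of fibroblasts, had 176 and 180 UMIs in these members, and 163 UMIs of *Dcn* lay in 1 *Gzmb*/*Cd7*/*Cpa3* member. The lowest were *Gm42418* (-4.24), *Hist1h3e* (-3.68), *Hist1h1a* (-3.42), *Hist1h1b* (-3.25) and *Hist1h4h* (-3.21), which moved by -5.41, -3.99, -3.97, -3.92 and -3.85 in mesenchymal cells. None of these 5 was thus lower in members by more than in mesenchymal cells.

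**Figure D4:**
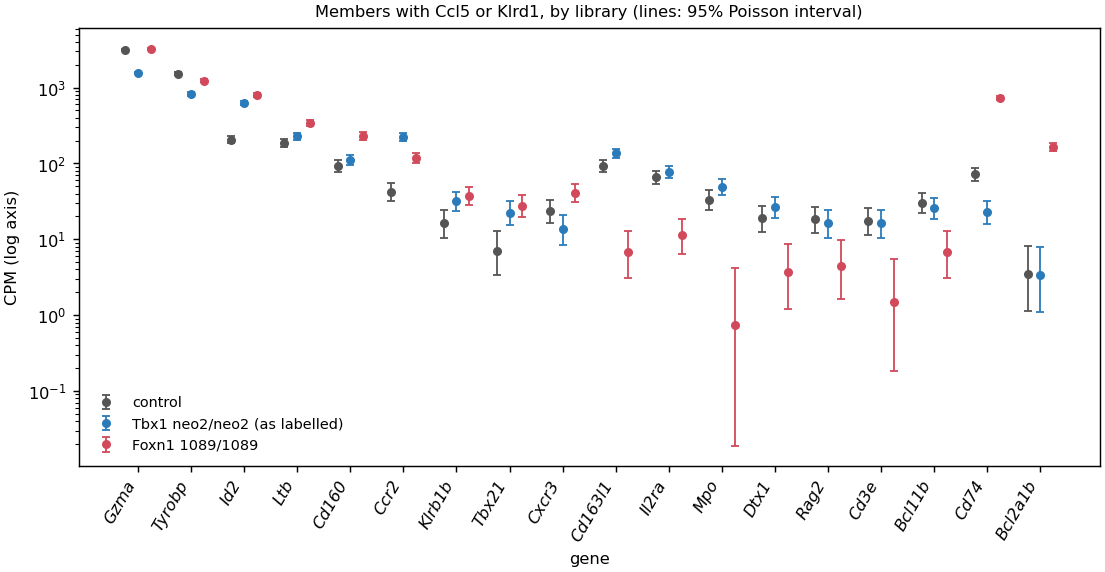
Level of 18 genes in *Ccl5*/*Klrd1* members (vertical axis, CPM on a log scale) by gene (horizontal axis) in the control, the Tbx1-labelled library and the Foxn1-mutant library, with lines for exact 95% Poisson intervals. *Id2* stands at 206, 626 and 802 CPM, while *Cd163l1* stands at 92.3 CPM in the control and 6.77 CPM in the Foxn1-mutant library.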

How the data were processed

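The deposited values are raw UMI counts per gene and barcode, which the authors made by aligning reads to mm10 with Cell Ranger 3.0.0, with no normalization before deposit. The submitters' notes also name Seurat, whose clusters were not used. All 27998 genes of the 3 files were read, and 27645 matched GENCODE mouse release 21 (GRCm38), which gave the coordinates.

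Cells were kept and members chosen by the thresholds given above. Of the comparison cells, those with none of the 5 markers numbered 5, 0 and 0, so cells with fewer than 3 of the 5 were used. Members and gene lists were chosen with earlier results of these data known. Likely doublets are the cells with the highest Scrublet scores, 0.8% per 1000 barcodes, scored in each library.

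UMIs were summed per class and library. Genes with at least 30 UMIs over the sums, without the 11 genes of the rules (the 5 markers, *Ptprc*, *Epcam*, *C1qa*, *Cd3g*, *Cd3d* and *Lck*), were tested in edgeR 4.0.16 (quasi-likelihood, TMM, library as block; limma 3.58.1, R 4.3.3). DESeq2 1.42.0 ran on the same sums. A count of libraries in a direction is by the fit unless CPM is named, from TMM-scaled values, and can differ from CPM. P values were adjusted by Benjamini-Hochberg over all tested genes, with 0.05 as the threshold. The sums of a library come from 1 sample, so members are not replicates, and the test rests on 3 libraries of different genotypes. The fit was also run on simulated counts with 200 genes changed, and the outcome is not reported here.

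Genes are named as the 10 largest positive and 10 largest negative differences among called genes with at least 100 UMIs and the same direction in 3 libraries, of which most are printed. By UMIs some of the negative genes lack that direction in the Foxn1-mutant library. *Rag1*, *Gm2694* and *Ptcra* had no UMI there in the classes compared, and *Loxl2* had UMIs there in *Ccl5*/*Klrd1* members only. From each of 25 lists come up to 4 tested genes with most UMIs in members and up to 2 more with the largest difference, and again a selection is printed. Between genotypes they are the 5 highest and 5 lowest ratios per library among genes with at least 100 UMIs, without the genes of the rules and mitochondrial, globin and sex-linked genes. Other genes were chosen after their values were seen. Some genes, and a gate that needs them, are not reported here. The mast cell gate asks for at least 2 of *Mcpt1*, *Mcpt2*, *Mcpt4*, *Mcpt8*, *Fcer1a*, *Ms4a2*, *Hdc*, *Cma1*, *Tpsb2*, *Tpsab1* and *Gata2*.

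Intervals are exact (Clopper-Pearson, Poisson, conditional binomial), or score intervals for ratios of shares. Where a sum was 0, the bound takes 3 counts in its place. The other tools were matplotlib 3.10.9, pandas 2.3.3, numpy 2.4.6, statsmodels 0.14.6, scanpy 1.11.5 and scipy 1.17.1 under Python 3.11.15.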

Additional observations from a re-analysis of the deposited data

Results flagged for a closer look

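In the control, 54 kept cells had at least 3 of the 5 markers and no UMI of *Ptprc*, and are in no group of the report. Cells with at least 3 of the 5 markers and with UMIs of both *Ptprc* and *Epcam* numbered 95 in the control, 120 in the Tbx1-labelled library and 33 in the Foxn1-mutant library. Whether these are doublets, free RNA or cells with both programs cannot be told apart here.

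*Cd163l1* in *Ccl5*/*Klrd1* members had a log2 ratio to the control of 0.56 (0.23 to 0.88) in the Tbx1-labelled library and -3.77 (-4.93 to -2.80) in the Foxn1-mutant library. Thinned to 10000 UMIs a cell, the former was 0.41 (-0.16 to 0.97). *H2-Aa* had -2.37 and 4.14 there, from 4 and 331 UMIs against 20 in the control, and is a gene of the dendritic gate. In the control 18 of the 20 UMIs lay in 1 cell. Thinned to 10000 UMIs a cell, its log2 ratio in the Tbx1-labelled library was 2.22 (-2.05 to 8.10), from 2 UMIs against 1. The difference between the 2 mutant libraries was not tested.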

How the results depend on the processing

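The limits are 1 library per genotype, 2 *Gzmb*/*Cd7*/*Cpa3* members in the Foxn1-mutant library, and depth, which moves a rule that asks for 3 detected genes. Of 1270 values of genes between classes, 885 kept direction and call, 339 were weaker, 6 stronger, 31 moved and 9 reversed. Of 224 ratios of genes between genotypes, 174 were the same, 46 moved and 4 reversed, and of 398 list medians 329 were the same and 69 moved. A comparison with cells with none of the 5 markers could not be run. Thinning to 10000 UMIs, leaving out dendritic-gated cells, allowing *Epcam* and asking for 5 or more UMIs were chosen after seeing the data. The cause of the changes below was not tested.

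The share of members in the Tbx1-labelled library over the control was 2.21 thinned to 2000 UMIs a cell, 1.24 thinned to 10000, 3.06 with at least 4 markers and 0.482 of all kept cells. For the Foxn1-mutant library it was 2.93, 0.985, 1.70 and 0.152. Asking for 4 markers leaves out *Gzmb*/*Cd7*/*Cpa3* members by definition. For *Ccl5*/*Klrd1* members the Tbx1-labelled library had 1.05 thinned to 10000, 3.06 with at least 4 markers and 0.518 of all kept cells, and the Foxn1-mutant library 5.85 thinned to 2000 and 0.443 of all kept cells. For *Gzmb*/*Cd7*/*Cpa3* members the Tbx1-labelled library had 2.46 thinned to 2000 and 0.465 of all kept cells. The Foxn1-mutant library had 0.00760 of all kept cells and, thinned to 2000, no such member.

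Genes higher and lower in members than in comparison cells numbered 17 and 5 by DESeq2, and by edgeR 2 and 0 thinned to 2000 UMIs (125 and 37 at an unadjusted p under 0.05), 47 and 18 thinned to 10000, and 86 and 12 in members with *Cd3g*, *Cd3d* and *Lck*. Without the control they were 64 and 12, without the Tbx1-labelled library 87 and 39, and without the Foxn1-mutant library 107 and 80. With no library block edgeR called 0 and 0 (232 and 37 unadjusted). Between the kinds of members the counts were 124 and 2 by DESeq2, and by edgeR 83 and 0 with no library block (546 and 98 unadjusted), 37 and 2 thinned to 2000 and 153 and 17 thinned to 10000. Without the control they were 177 and 17, without the Tbx1-labelled library 129 and 9, and without the Foxn1-mutant library 543 and 326. Lower genes numbered 270 with *Epcam* allowed and 369 with 5 or more UMIs.

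Reversed log2 differences of members against comparison cells were *Gzma* 0.29, *Cd3e* 0.045 and *Cd74* -0.47 in members with *Cd3g*, *Cd3d* and *Lck*, *Cd3e* 0.26 without the control (-1.87 without the Tbx1-labelled library) and *Csf2* -0.32 with *Epcam* allowed. Between the kinds they were *Ccl4* -0.25 thinned to 10000, *Mcpt2* 0.92 by DESeq2, and *Cma1* 0.39 and *Hdc* 0.24 without the Foxn1-mutant library (-3.051 and -3.053 without the Tbx1-labelled library). Between genotypes *H2-Aa* was 2.22 in the Tbx1-labelled library thinned to 10000. In the Foxn1-mutant library without dendritic-gated cells *Cd74* was -0.11, and *H2-Aa* and *H2-Ab1*, which are genes of the gate, -0.60 and -0.60. Not counted as reversed is *H2-Ab1* in the Tbx1-labelled library, whose main interval held 0 (-0.60, -1.73 to 0.50). It was 0.54 thinned to 10000, 0.42 without dendritic-gated cells and 1.03 (0.46 to 1.63) with *Epcam* allowed.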
